A study of Drosophila melanogaster with 36 samples.

Results

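The regions described here are places in the Drosophila genome where a bound region was called in every one of 12 stable cell lines. They were selected on the authors' own region calls: a region of the Ubx line at q 1e-2 was taken when at least 1 bp of it was overlapped by a region of each of the other 11 lines. Of 5278 Ubx regions, 1621 met this rule, which is 30.7%. Since the overlap calls chose the members, their number, their widths and the stricter calls over them are given as a description with no test.

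The study asked how Hox proteins, with and without cofactors, find their binding sites in chromatin. Kc167 is a Drosophila cell line that resembles hemocytes, the circulating cells of insect blood. Each line carried pMT-puro plasmids, kept by puromycin, in which the metallothionein promoter drove the introduced proteins once CuSO4 was added. Alone, the lines carried Dfd, Ubx, Abd-B (AbdB in the labels), Hth or Gcm. Combined, they carried Dfd+Hth, Ubx+Hth, Abd-B+Hth, Dfd+Gcm, Ubx+Gcm, Dfd+Hth+Gcm or Ubx+Hth+Gcm. The Hox protein had the eGFP tag in every line that expressed one, while the tag was on Hth or on Gcm in the lines with neither Dfd, Ubx nor Abd-B. Anti-GFP ChIP-Seq was made on formaldehyde-fixed cells sorted for their GFP level. Every line gave 2 biological ChIP replicates and 1 input library, so that 24 ChIP and 12 input libraries stand behind the lists. None of them is a ChIP from cells with GFP alone or with no tag. Enrichment unrelated to the tagged protein, which could also be shared by all lines, was thus not tested.

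Induction differed between the lines. It was 1 mM CuSO4 for 18 h in the Ubx, Ubx+Hth and Hth lines, 2 mM for 24 h in Dfd, and 0.5 mM for 24 h in Abd-B. The Gcm, Ubx+Gcm, Ubx+Hth+Gcm and Abd-B+Hth lines received 2.5 mM for 24 h, and Dfd+Gcm 3.2 mM for 24 h. The Dfd+Hth line received 2.66 mM and the Dfd+Hth+Gcm line 3.7 mM, both for 22 h. The dose was thus shared within the set of Ubx, Ubx+Hth and Hth and within the set of Gcm, Ubx+Gcm, Ubx+Hth+Gcm and Abd-B+Hth. In other comparisons between lists the proteins and the induction cannot be told apart, and each line is 1 population of selected cells.

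Hox proteins are homeodomain transcription factors that give segments their identity along the body axis, and by themselves they recognise short AT-rich sites. Hth, a TALE homeodomain protein, brings its partner Exd into the nucleus, and Exd and Hox proteins bind DNA together at longer composite sites. Gcm is a zinc-binding factor needed for glia and also for hemocyte development, with a GC-rich site of its own. Stretches of open chromatin where many unrelated factors are found together are well known in the fly and often carry sites for GAGA factor, the product of Trl.

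The first set of sequences shows what lay in the middle of the widest stretches. For each member, the stretch covered by regions of all 12 lines at the same time was found, and 6 of the 10 widest are shown, each by its central 200 bp. They are the plus strand of the RefSeq genome of Release 6 (dm6), with capitals where GAGAG or CACACA matched on either strand.
Intergenic, chr2L:12011345-12011544: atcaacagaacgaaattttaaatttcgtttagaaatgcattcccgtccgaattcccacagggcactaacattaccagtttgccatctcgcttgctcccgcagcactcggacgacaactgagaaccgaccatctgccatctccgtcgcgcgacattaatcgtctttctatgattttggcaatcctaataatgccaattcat
at spi, chr2L:19575792-19575991: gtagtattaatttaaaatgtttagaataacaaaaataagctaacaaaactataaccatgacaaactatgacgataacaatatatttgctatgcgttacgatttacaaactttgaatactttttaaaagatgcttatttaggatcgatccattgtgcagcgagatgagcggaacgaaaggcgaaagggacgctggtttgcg
beside lncRNA:CR45541, chrX:9583742-9583941: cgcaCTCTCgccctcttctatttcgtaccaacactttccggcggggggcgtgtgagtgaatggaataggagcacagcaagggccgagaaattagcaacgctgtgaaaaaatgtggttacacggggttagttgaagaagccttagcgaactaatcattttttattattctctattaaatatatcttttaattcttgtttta
at CG1677, chrX:7300579-7300778: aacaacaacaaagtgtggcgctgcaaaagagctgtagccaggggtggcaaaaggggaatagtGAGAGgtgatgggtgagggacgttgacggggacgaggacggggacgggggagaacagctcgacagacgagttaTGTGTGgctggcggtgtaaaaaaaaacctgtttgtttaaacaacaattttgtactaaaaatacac
at Tlk, chrX:3742564-3742763: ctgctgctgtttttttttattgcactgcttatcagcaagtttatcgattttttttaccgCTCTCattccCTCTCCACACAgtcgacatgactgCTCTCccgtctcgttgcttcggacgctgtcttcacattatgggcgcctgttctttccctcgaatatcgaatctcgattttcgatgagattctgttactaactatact
at Kdm2, chr3R:9054770-9054969: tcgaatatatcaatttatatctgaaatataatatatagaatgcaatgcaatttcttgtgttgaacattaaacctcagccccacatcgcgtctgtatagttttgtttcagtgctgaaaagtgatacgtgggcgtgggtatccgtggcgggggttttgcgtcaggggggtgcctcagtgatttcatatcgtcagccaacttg
The Tlk stretch held 3 matches of GAGAG and 1 of CACACA, the CG1677 stretch 1 of each, and the CR45541 stretch 1 of GAGAG. No match of either was in the central 200 bp of the intergenic, spi and Kdm2 stretches, so neither motif was a mark of every member.

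A second set comes from genes of the hemocyte, ecdysone and glial lists taken up further on, and was picked, with the matches known, because it carried at least 4 matches of GAGAG or at least 4 of CACACA. Each is the central 200 bp of the widest common stretch at its gene.
beside gcm2, chr2L:9608054-9608253: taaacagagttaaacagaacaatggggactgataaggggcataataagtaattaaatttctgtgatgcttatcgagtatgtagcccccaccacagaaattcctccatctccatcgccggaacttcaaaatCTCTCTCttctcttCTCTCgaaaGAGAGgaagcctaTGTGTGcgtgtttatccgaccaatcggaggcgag
in Hr39, chr2L:21250762-21250961: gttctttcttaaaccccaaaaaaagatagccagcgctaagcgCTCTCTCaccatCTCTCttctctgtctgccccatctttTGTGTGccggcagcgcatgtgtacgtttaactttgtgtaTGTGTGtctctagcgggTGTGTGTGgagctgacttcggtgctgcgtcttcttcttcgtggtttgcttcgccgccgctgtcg
in ftz-f1, chr3L:18791178-18791377: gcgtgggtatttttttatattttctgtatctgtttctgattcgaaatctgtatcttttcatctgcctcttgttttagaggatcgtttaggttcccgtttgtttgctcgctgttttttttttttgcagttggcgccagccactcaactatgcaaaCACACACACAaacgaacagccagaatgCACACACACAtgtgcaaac
beside ttk, chr3R:31713385-31713584: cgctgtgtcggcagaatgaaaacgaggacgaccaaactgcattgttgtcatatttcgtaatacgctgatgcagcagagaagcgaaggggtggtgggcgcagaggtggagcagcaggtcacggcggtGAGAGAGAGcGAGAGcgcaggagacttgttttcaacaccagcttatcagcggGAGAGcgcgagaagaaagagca
beside moody, chrX:2050179-2050378: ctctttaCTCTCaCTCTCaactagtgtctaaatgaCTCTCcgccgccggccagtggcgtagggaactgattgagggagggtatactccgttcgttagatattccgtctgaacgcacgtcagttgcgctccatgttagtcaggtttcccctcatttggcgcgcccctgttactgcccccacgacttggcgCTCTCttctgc
GAGAG had 5 matches beside ttk, 4 beside gcm2, 4 beside moody and 3 in Hr39. CACACA had 6 matches, overlapping ones counted apart, in ftz-f1 and 4 in Hr39.

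The third set shows the site of Gcm, which is ATACGGGC, ATACGGGT, ATGCGGGC or ATGCGGGT on either strand, in members at 2 genes known to respond to Gcm in the fly. It stands in capitals in 120 bp around the match. Both matches lie in the member but outside its central 200 bp, the window in which motifs are counted further on. The gene pnt encodes an ETS factor below EGFR, and loco encodes a regulator of G protein signalling found in glia.
at pnt, chr3R:23309954-23310073: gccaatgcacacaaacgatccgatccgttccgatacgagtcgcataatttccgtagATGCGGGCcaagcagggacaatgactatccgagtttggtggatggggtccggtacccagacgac
at loco, chr3R:22627551-22627670: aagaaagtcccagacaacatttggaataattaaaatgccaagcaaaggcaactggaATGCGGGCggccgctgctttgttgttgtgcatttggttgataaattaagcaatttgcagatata
The pnt member around this site was called at q 1e-10 in 11 lines and the loco member in 12. Members at drpr, hh, ftz-f1, E(spl)m8-HLH and RpS19a, genes of other lists taken up further on, held the site as well. The site was thus not confined to the list of glial genes and Gcm targets, from which pnt and loco were picked.

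The number of lines that shared a Ubx region was weighted to the upper end. The 1621 members were followed by 1327 regions bound in 11 lines, 728 in 10 lines, 520 in 9 and 320 in 8, while 23 regions were shared with 1 other line and 3 with none. Of the 1327 regions short of 1 line, 775 lacked Gcm and 396 lacked Ubx+Hth, which leaves 156 for the other 9 lines together. The Gcm list covered 2783 of the Ubx regions and the Ubx+Hth list 3332. The other 9 lists covered between 3931 (Dfd+Hth+Gcm) and 5166 (Abd-B). Gcm and Ubx+Hth thus set most of the limit: 1998 Ubx regions overlapped both, and 81.1% of these were members. Without both lines in the rule, 3127 Ubx regions qualified.

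**Figure D1:**
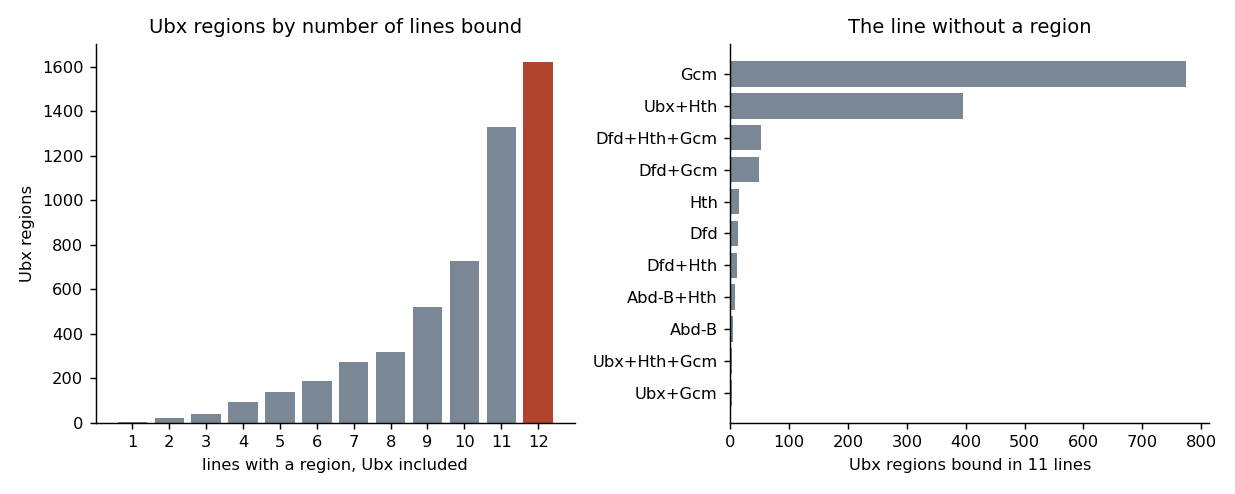
Left, Ubx regions at q 1e-2 by the number of lines with a region, Ubx included; the red bar is the 1621 regions bound in all 12 lines. Right, for the 1327 regions bound in 11 lines, the line that had no region, with 775 for Gcm and 396 for Ubx+Hth.

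At the edge of the rule, the overlap was thin for few members. The least overlap with any line was under 50 bp in 15 members. The 3 smallest were 2 bp with Ubx+Hth at Kap-alpha3 and CG9399 (chr3R:9573784-9574596), 11 bp with Gcm in an intron of CG16974 (chr2L:13190589-13191059), and 19 bp with Gcm in an intron of unc-5, the netrin receptor gene (chr2R:15353084-15354222). Outside the rule, the widest regions short of 1 line were 1910 bp at MRP without Gcm, 1892 bp at Uba1 without Ubx+Hth, and 1867 bp at Idgf6 and Pgant9 without Gcm. At these 3 loci the median width over the 12 lines was 2338, 2116 and 1580 bp. Regions of a line that overlapped the Ubx region were summed, and the missing line was taken as 0. The missing call thus stood among wide regions of the rest.

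The members were wide. In the Ubx line they measured 263 to 4847 bp with a median of 796 bp (quartiles 564 and 1132 bp), and the other 3657 Ubx regions 233 to 1910 bp with a median of 457 bp (quartiles 367 and 622 bp). A wider region has more bases with which to meet the rule, so this gap is tied to the choice of members. How much of it comes from that choice was not tested. A stretch common to all 12 lines existed in 1553 members, with a median of 416 bp and a maximum of 2515 bp. It took up a median of 58.3% of the Ubx region. In 68 members each line overlapped the Ubx region but no base was covered in all 12.

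In every line, regions that touched a member had a higher median width than the other regions of that line. The median was 1626 against 626 bp in Abd-B, 1413 against 579 bp in Abd-B+Hth and 1266 against 567 bp in Hth. The gap was smallest in Gcm, with 597 against 461 bp, and in Ubx+Hth, with 749 against 513 bp. Members took 34.1% of the regions of Ubx+Hth and 30.7% of those of Ubx, the shortest lists with 4885 and 5278 regions, and 10.7% of the 13511 regions of Abd-B. The number of regions, the width and the induction dose differ together between the lines, and depth is not held in the lists. The paper gives mapped reads for stable lines, and the deepest ChIP library it lists for them is an Abd-B replicate. The part of region number, dose and depth in these widths was not tested.

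**Figure D2:**
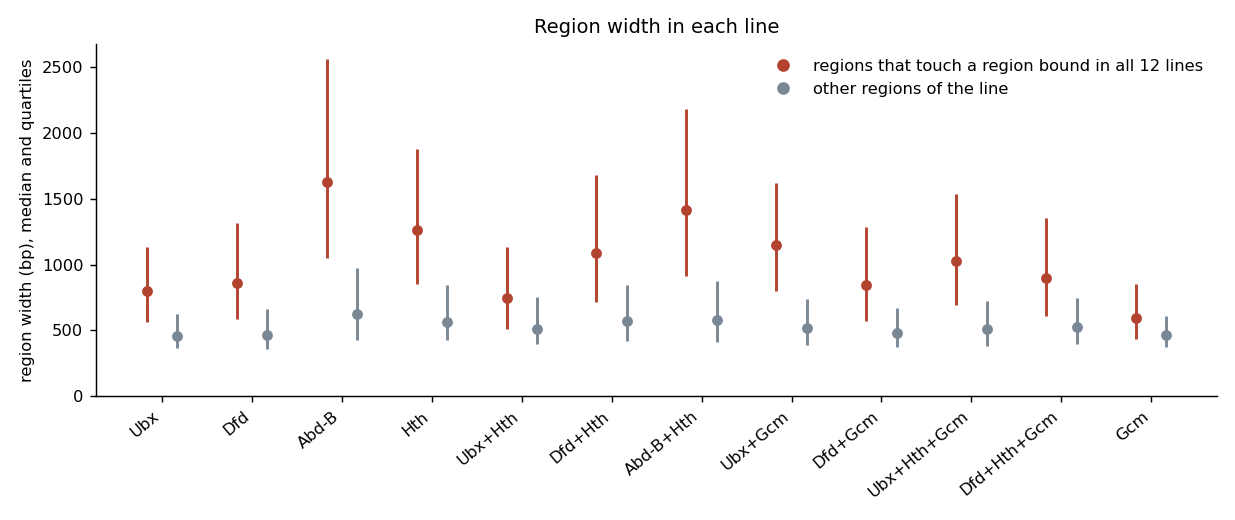
Region width in bp (median as a point, quartiles as a bar) in each of the 12 lines, for regions that touch a region bound in all 12 lines (red) and for the other regions of the same line (grey). The red median lies above the grey one in every line, from 597 against 461 bp in Gcm to 1626 against 626 bp in Abd-B.

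The width of the same member varied between lines. In Ubx it is the width of the Ubx region itself. In every other line it is the summed full width of all regions overlapping that Ubx region, parts outside it included. Among members, 163 overlapped at least 2 regions of Gcm, 138 at least 2 of Dfd and 5 at least 2 of Abd-B. A wide region could also count for more than 1 member. A member was widest in Abd-B in 758 cases, in Hth in 287 and in Abd-B+Hth in 223, and narrowest in Gcm in 713, in Ubx+Hth in 318 and in Ubx in 193. The order of members by width was partly shared: over the 66 pairs of lines, Spearman's rho across the 1621 members had a median of 0.60, the lowest being 0.26 (Abd-B+Hth and Gcm) and the highest 0.84 (Dfd+Hth and Dfd+Hth+Gcm). These values describe members, which are not replicates, and all pairs share the same loci.

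Lines with a cofactor and lines without it could be set side by side over the same members. In the pairs with Ubx, a sum over regions was set against the Ubx region alone. With Hth, 74.7% of the members were wider in Dfd+Hth than in Dfd, 49.1% were wider in Ubx+Hth than in Ubx, and 23.8% were wider in Abd-B+Hth than in Abd-B. The same shares among the other Ubx regions present in both lines of each pair were 65.4%, 60.7% and 23.2%. With Gcm, 91.2% of the members were wider in Ubx+Gcm than in Ubx and 44.7% were wider in Dfd+Gcm than in Dfd, while 86.4% and 43.4% of the other shared regions were. For Ubx+Hth against Ubx the median ratio of widths was 0.996 over members and 1.10 over the other regions, on either side of 1. With 1 list per line no error can be put on these values.

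At the stricter q 1e-10, no member lost the call in every line. All 12 lines kept a region over 401 members (24.7%), 995 members kept it in at least 10 lines, and the fewest was 2 lines, in 3 members. By line, 98.4% of the members had a stricter call in Abd-B, 94.3% in Ubx+Gcm and 94.3% in Hth, against 87.8%, 50.5% and 65.0% of the other Ubx regions. The share was 56.5% in Ubx+Hth, 64.0% in Ubx and 64.5% in Gcm, against 20.1%, 18.4% and 16.4% of the other Ubx regions. The rule gave every member a region in every line, while outside Ubx the other regions include those with none in the line. Of the other Ubx regions, 1711 had a region in Ubx+Hth, and 735 had a stricter call there. Part of each gap outside Ubx thus belongs to the choice of members, and how much was not tested. When the rule was run on the q 1e-10 lists themselves, 378 of 1832 Ubx regions passed, and all 378 lay over members. Both sets of lists come from the same libraries, so this overlap follows nearly from the calling itself.

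The 10 members with the widest common stretch were called at q 1e-10 in all 12 lines. The widest lay between genes (chr2L:12010122-12012740), 2097 bp from the start of lncRNA:CR44588, with 2515 bp in common. Its region was 2543 bp in Dfd+Gcm, the narrowest, a median of 2709 bp over the 12 lines and 3341 bp in Abd-B, the widest, so its size was nearly the same everywhere. The next lay in an intron of spi (chr2L:19574692-19577807), which encodes the EGFR ligand Spitz, with 2401 bp in common. Its widths were 2614 bp in Gcm, a median of 3072 bp and 4079 bp in Ubx+Gcm.

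A member beside lncRNA:CR45541 (chrX:9582695-9585033) had 2294 bp in common, with widths of 2339 bp in Ubx, a median of 3025 bp and 4571 bp in Hth. In an intron of ph-p (chrX:2136330-2138930), which encodes a subunit of Polycomb repressive complex 1, 2291 bp were common, and widths were 2291 bp in Gcm, a median of 4225 bp and 4555 bp in Ubx+Gcm. Here the Gcm region itself was the common stretch. The member at spen (chr2L:160379-162444), which encodes an RNA-binding nuclear protein, had its centre in a 5′ UTR and 1841 bp in common, with widths of 1841 bp in Gcm, a median of 2167 bp and 4420 bp in Abd-B.

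An intron of CG1677 (chrX:7299734-7301923) held a member with 1695 bp in common and widths of 2077 bp in Dfd, a median of 2183 bp and 2795 bp in Abd-B. The start nearest to it belonged to brk, the repressor of Dpp targets, 7110 bp away. In Tlk (chrX:3741670-3744197), which encodes the Tousled-like kinase, 1590 bp were common, and widths were 2398 bp in Dfd, a median of 3415 bp and 5212 bp in Abd-B+Hth. The Kdm2 intron (chr3R:9053948-9055859), in the gene of a JmjC-domain histone demethylase, had 1519 bp in common and widths of 1564 bp in Ubx+Hth, a median of 1791 bp and 3566 bp in Dfd+Hth. Besides Dfd+Hth, the Kdm2 region was wide in the Abd-B lines, at 3544 bp in Abd-B and 3512 bp in Abd-B+Hth, and at most 1912 bp in the other 9 lines.

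The last 2 of the 10 lay on chromosome arm 2R, in introns of shn and tou. The gene shn (11202063 to 11205239) encodes a zinc finger cofactor of Dpp signalling, and its member had 1862 bp in common and widths of 2294 bp in Gcm, a median of 3503 bp and 5233 bp in Abd-B. The member in tou (11592974 to 11594543), whose product is a chromatin remodelling protein, had 1563 bp in common and widths of 1570 bp in Ubx, a median of 1722 bp and 2567 bp in Abd-B. It stood at the start of the densest run of members: 10 of them lay within 50 kb, between 11592974 and 11639909, over tou, Egm and atos. Between neighbouring members in general the median gap was 24391 bp (quartiles 4161 and 88453 bp).

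By arm, members were 32.8% of the Ubx regions on 3R, 30.9% on X, 30.7% on 2R, 29.7% on 2L and 29.1% on 3L, and 9 of 33 on the small chromosome 4. Their density was between 10.7 (3L) and 13.4 (X) per Mb on the 5 large arms and 6.68 per Mb on chromosome 4. The X chromosome held 316 of the 1621 members (19.5%) and 707 of the 3657 other Ubx regions (19.3%), a difference that Fisher's exact test, two-sided, did not separate from 0 (odds ratio 1.01, p = 0.91).

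Members lay less often at transcript starts than other Ubx regions, a measure the rule had not used. The centre was within 500 bp of a start in 769 of 1621 members (47.4%, exact binomial 95% interval 45.0 to 49.9%) and in 2070 of 3657 other Ubx regions (56.6%, 55.0 to 58.2%). The odds ratio was 0.69 (Fisher's exact test, two-sided, p = 8.25e-10), and the share was lower in members on 5 of 5 large arms. The median distance to a start was 587 bp for members and 291 bp for the other regions. Regions are not independent replicates, so that p and intervals cover the counting of regions alone.

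The share had no single direction over the number of lines. It was 36.6% in regions bound in 3 lines, 27.4% in 4, 45.0% in 5, 51.8% in 7, 61.3% in 9, 63.9% in 10 and 58.9% in 11, before the 47.4% of the members. The nearest neighbours of the rule differed from each other: 79.3% of the 396 regions short of Ubx+Hth alone were within 500 bp of a start and 50.3% of the 775 short of Gcm alone. Against the regions short of Ubx+Hth, members had an odds ratio of 0.24 (exact p = 1.30e-31, lower on 5 of 5 arms). Against those short of Gcm it was 0.89 (exact p = 0.19), which does not show that the shares are alike. Both comparisons were added after the data were seen.

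**Figure D3:**
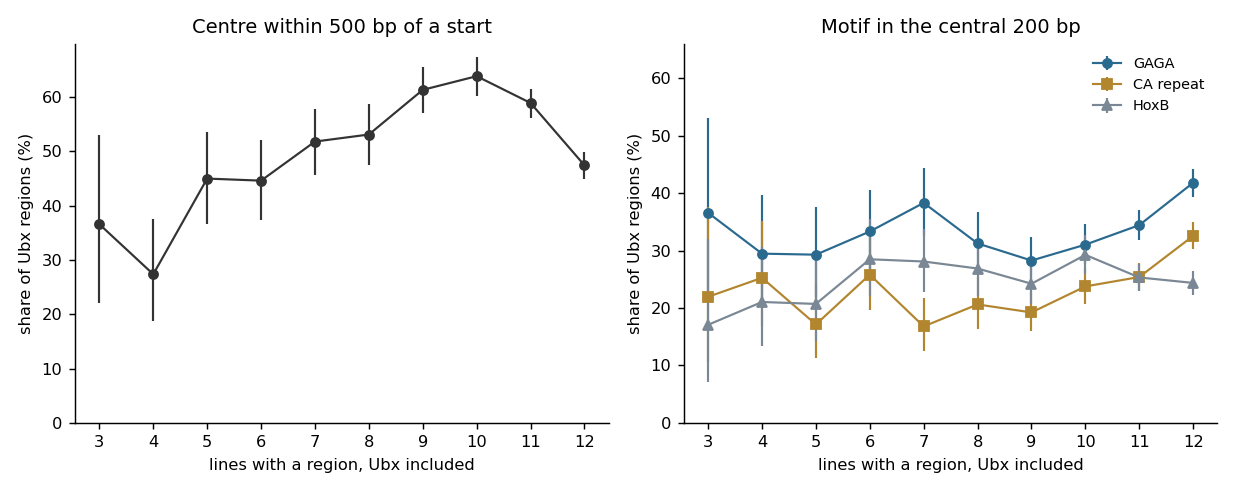
Share of Ubx regions (%) by the number of lines with a region, Ubx included, with exact binomial 95% intervals, for regions bound in 3 to 12 lines. Left, centre within 500 bp of a transcript start, highest at 63.9% in 10 lines and 47.4% in 12; right, GAGA, CA repeat and HoxB motifs in the central 200 bp, with GAGA at 41.8% and CA repeat at 32.6% in 12 lines.

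The lower share at starts held within classes of region width: in the 4 quartiles of Ubx region width, members were at starts in 42.7, 45.5, 50.7 and 46.8% of cases and other Ubx regions in 56.0, 58.3, 56.7 and 54.3%. It also held at q 1e-10, where 33.1% of 378 members and 45.1% of 1454 other Ubx regions were at starts (odds ratio 0.60). It was no longer past the threshold when any part of the region, in place of its centre, was counted: 59.5% of members and 62.1% of other Ubx regions then came within 500 bp (odds ratio 0.898, exact p = 0.0808), and members were the wider regions.

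Members lay in introns more often. At the centre, 868 members (53.5%) lay in an intron, against 1557 other Ubx regions (42.6%, odds ratio 1.55, adjusted exact p = 1.23e-12 over 6 annotation classes). Intergenic sequence held 21.8% of members and 29.9% of the other regions (odds ratio 0.65, adjusted exact p = 2.20e-09), and 5′ UTRs 18.1% and 21.9% (odds ratio 0.79, adjusted p = 0.00348). Exons of non-coding transcripts were more frequent among members, at 3.39% against 2.02% (odds ratio 1.70, adjusted exact p = 0.00553). Each of these directions held on 5 of 5 large arms. Coding exons and 3′ UTRs held 27 and 24 members and did not pass the test (adjusted exact p = 0.696 and 0.722). Counted over 500 bp from any start, introns held 38.4% of members and 30.7% of other regions (odds ratio 1.40, exact p = 6.78e-08), and intergenic sequence 10.2% and 9.41% (odds ratio 1.09, p = 0.39). Far introns held 36.3% of the 775 regions short of Gcm alone and 15.2% of the 396 short of Ubx+Hth alone, differences from members that were not tested.

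Sequence was compared in the central 200 bp, so that width could add no matches. The motifs were 15 short strings searched on both strands, and the members differed from the other Ubx regions in 7 of them by Fisher's exact test with Benjamini-Hochberg adjustment over the 15. Of all 15 motifs, 26.7% were more frequent in members and 20% less frequent. GAGAG, the core of the GAGA factor site, was in 41.8% of members (39.4 to 44.3%) and 32.6% of other Ubx regions (31.0 to 34.1%), an odds ratio of 1.49 (adjusted exact p = 9.29e-10). CACACA, a CA repeat, was in 32.6% (30.3 to 34.9%) and 22.9% (21.5 to 24.3%), an odds ratio of 1.63 (adjusted exact p = 4.05e-12). Both were higher in members on 5 of 5 arms. Over the centres of all 112270 regions of the 12 lines the shares were 27.2% for GAGAG and 21.9% for CACACA.

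Against the 775 regions short of Gcm alone, both repeats were again more frequent in members (34.7% there for GAGAG, adjusted exact p = 0.00354, and 23.6% for CACACA, adjusted exact p = 0.000102). Against the 396 regions short of Ubx+Hth alone, GAGAG was more frequent in members (32.1% there, adjusted exact p = 0.00203) and CACACA missed the threshold (28.8%, adjusted exact p = 0.312).

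Away from the centre the gap was smaller. In windows of the same size 1000 bp to either side, GAGAG was found in 25.2% of member windows and 23.2% of windows beside other Ubx regions, and CACACA in 19.0% and 16.3%. At least 2 matches of GAGAG were in 22.9% of members and 14.9% of other regions, and at least 2 of CACACA in 18.2% and 10.0%. One motif or the other was in 59.9% of members and 46.8% of other regions, and both in 14.5% and 8.61%. The strings cannot overlap by more than 1 base, but a CA repeat may run into the M1BP string, GGTCACAC.

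Within the members both repeats were found near starts and away from them. GAGAG was in 42.0% of the 769 members within 500 bp of a start and in 41.7% of the 852 farther away, and CACACA in 33.4% and 31.8%. Against other Ubx regions over 500 bp from a start the odds ratios were 1.44 (adjusted exact p = 0.000586) and 1.43 (adjusted p = 0.00144). With the rule at q 1e-10, and 378 members, they were 1.35 and 1.38 and missed the threshold (adjusted exact p = 0.0513 for both).

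The Gcm site was rare but more frequent in members: 27 of 1621 (1.67%, 1.10 to 2.41%) against 21 of 3657 other Ubx regions (0.574%, 0.356 to 0.877%), an odds ratio of 2.93 (adjusted exact p = 0.000708) and higher on 5 of 5 arms. In the whole region, which is wider in members, 118 members (7.28%) and 62 other regions (1.70%) held it. By the rule every member overlapped a Gcm region, while the Gcm list covered 2783 of all 5278 Ubx regions. The 775 regions short of Gcm alone had no Gcm region by definition. A higher share of Gcm sites in members than in either set is thus tied to how the sets were chosen. The 396 regions short of Ubx+Hth alone all overlapped a Gcm region, as members did. Against the 775 regions short of Gcm alone, where the share was 0.129%, the odds ratio was 13.1 (adjusted exact p = 0.00177), and against the 396 short of Ubx+Hth alone, at 1.52%, it was 1.10 (adjusted p = 1). Over all regions of the 12 lines, the Gcm lists included, the share was 3.92%, above that of members. At q 1e-10 (odds ratio 1.94, adjusted exact p = 0.407) and away from starts (2.95, adjusted p = 0.125) the site missed the threshold.

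For sites of the Hox proteins themselves, no difference passed the test in the central 200 bp with all arms. HoxA, the site of anterior and central Hox proteins, was searched as TTAATTA and as TTAATGA, and also as CTAATTA and as CTAATGA. HoxB, preferred by Abd-B, was searched as TTTATTA and as TTTATTG, and also as TTTATGA and as TTTATGG. HoxA was in 12.5% of members and 13.9% of other Ubx regions (adjusted exact p = 0.249), and HoxB in 24.4% and 26.0% (adjusted p = 0.272). The composite octamers of Exd and Hox were rare and also did not pass the test: TGATTGAT in 0.925% of members and 0.547% of other regions, TGATTAAT in 1.42% and 1.48%, and TGATTTAT in 1.42% and 1.70%. The octamer TGATTAAT can overlap a HoxA match and TGATTTAT a HoxB match. Over all regions of the 12 lines the HoxA share was 22.5% and the HoxB share 29.0%, both above those of the members, and the octamers were in 1.77%, 2.82% and 3.15%. Other ways of counting gave calls: HoxB was lower in members in the central 400 bp (odds ratio 0.853, adjusted exact p = 0.0192) and at the centre of the common stretch (0.773, adjusted exact p = 0.000774), TGATTGAT was higher in the central 400 bp (2.02, adjusted exact p = 0.00555), and HoxA was lower without arm 2R (0.783, adjusted exact p = 0.0351). With whole regions, which are wider in members, HoxA, HoxB and the 3 octamers were all more frequent in members. Against regions short of Gcm alone HoxA was lower in members, at 12.5% and 18.2% (odds ratio 0.64, adjusted exact p = 0.00172).

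Motifs of housekeeping promoters were less frequent in members than in the other Ubx regions. The DRE string TATCGATA, the site of DREF, was in 1.79% of members and 3.66% of other Ubx regions (odds ratio 0.48, adjusted exact p = 0.000708), and the M1BP string in 2.04% and 4.02% (odds ratio 0.50, adjusted p = 0.000708), both lower on 5 of 5 arms. Over all regions of the 12 lines their shares were 3.10% and 2.39%. Against the regions short of Ubx+Hth alone, DRE (4.29% there, adjusted exact p = 0.0271) and M1BP (5.56% there, adjusted exact p = 0.00203) were again lower in members. Against those short of Gcm alone neither passed the test, with 2.84% there for DRE (odds ratio 0.623, adjusted exact p = 0.164) and 2.45% for M1BP (0.827, adjusted exact p = 0.638). In members they stood mostly at starts: DRE in 27 of 769 members near a start and 2 of 852 away from one, and M1BP in 28 and 5. Within classes of width, the odds ratios were 0.705 and 0.701 and missed the threshold. Away from starts they were 0.285 (adjusted exact p = 0.309) for DRE and 1.17 (adjusted p = 0.872) for M1BP, a turn of direction for M1BP.

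The remaining calls were small. AP-1 (TGANTCA), the site of Jun and Fos, was in 6.66% of members and 5.03% of other regions (odds ratio 1.35, adjusted exact p = 0.0401, higher on 3 of 5 arms), and the E-box CAGCTG in 9.62% and 11.9% (odds ratio 0.79, adjusted p = 0.0401, higher on 1 of 5 arms). Each lost its call in 7 of 11 alternatives, and the E-box turned direction when whole regions were searched. The GATA site AGATAA, bound by the hemocyte factor Serpent, was in 14.3% of members and 12.9% of other regions (adjusted exact p = 0.272), and in 7.07% of the regions short of Ubx+Hth alone (odds ratio 2.18, adjusted p = 0.00111). In the regions short of Gcm alone it was 17.7%, above the members, and missed the threshold (odds ratio 0.774, adjusted exact p = 0.0728). The Runx string AACCACA was in 2.90% and 2.30% and the STAT string TTCNNNGAA in 4.94% and 5.61%, with no call. Over all regions of the 12 lines the shares were 6.47% for AP-1, 10.9% for the E-box, 14.4% for GATA, 2.80% for Runx and 5.79% for STAT. The median GC content of the central 200 bp was 45.0% in members and 43.0% in the other regions.

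**Figure D4:**
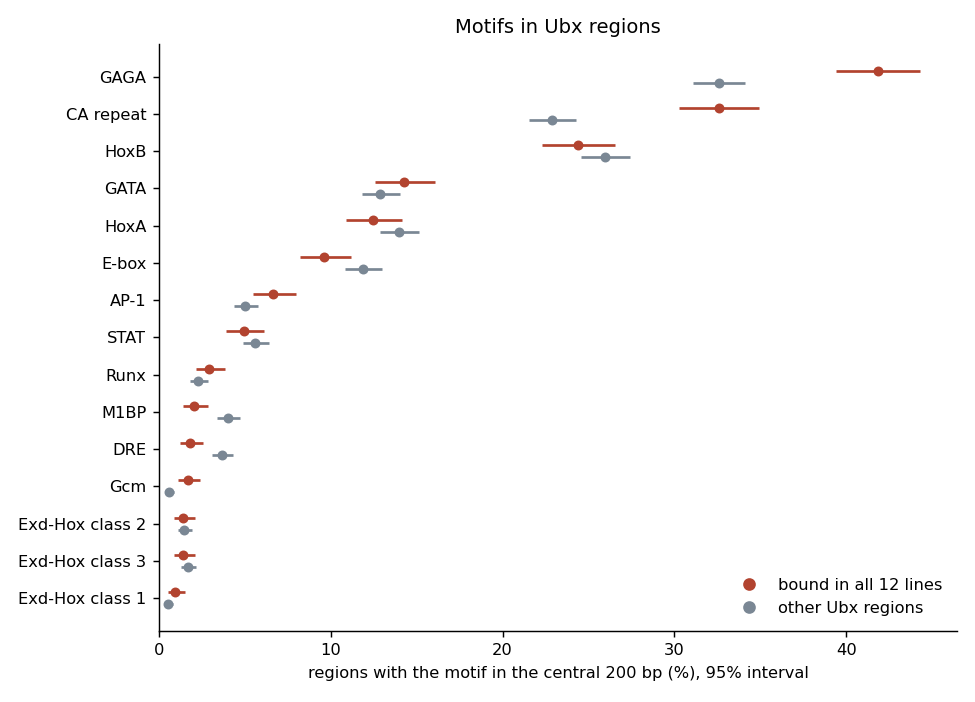
Share of regions (%) with each of 15 motifs in the central 200 bp, in the 1621 regions bound in all 12 lines (red) and the 3657 other Ubx regions (grey), with exact binomial 95% intervals. GAGA (41.8 against 32.6%) and CA repeat (32.6 against 22.9%) stand apart to the right, and DRE and M1BP are lower in the red set.

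A search over every 6-mer, added after the motif results were known, gave the same repeats and a string found within the Gcm site. Of 2080 6-mers, read with their reverse complements, 78 (3.75%) were more frequent in members and 44 (2.12%) less frequent, by Fisher's exact test with adjustment over all of them. The lowest p belonged to ACACAC (29.8% of members and 19.1% of other regions, adjusted exact p = 4.56e-14), CACACA (adjusted p = 2.81e-10) and GAGAGA (22.8% and 14.7%, adjusted p = 1.14e-09). AGAGCG, with 22.8% and 15.4%, CTCACA, with 15.7% and 9.54%, and GAGCGA, with 21.4% and 14.4%, came next. Soon after stood CCCGCA, with 10.1% and 5.61% (odds ratio 1.90, adjusted exact p = 2.49e-06). Its reverse complement TGCGGG lies within the Gcm strings ATGCGGGC and ATGCGGGT, and by the rule every member overlapped a Gcm region. Lower in members were TATCGA, part of the DRE string, at 8.95% and 15.6% (adjusted exact p = 1.10e-08), and AT-rich strings such as AAAATA, at 33.3% and 40.1%. Within classes of width, 63 of the 78 and 36 of the 44 kept their call and direction. Away from starts 5 6-mers passed.

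Members were then assigned to genes. A member lay in the gene or within 2 kb for 1931 of 13945 protein-coding genes, which is 13.8%, while any Ubx region did so for 5449 genes (39.1%). The share rose with gene length: it was 4.84% in the shortest quartile of genes (median 798 bp), 8.99%, 13.4%, and 28.2% in the longest (median 11385 bp). Of the genes with a member, 1488 had 1, 300 had 2, 86 had 3, 25 had 4 and 16 had 5.

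The gene with the most members was ush, which encodes a Friend-of-GATA partner of Serpent in blood cells, with 9 members among 20 Ubx regions. Raf, the kinase below EGFR and Torso, followed with 8 of 14. The next 5, with 7 members each, were Eip75B (7 of 27), a nuclear receptor gene of the ecdysone response, Pdp1 (7 of 14), a bZIP factor of the circadian clock and of growth, Tlk (7 of 15), pnt (7 of 14) and tara (7 of 17), which encodes a transcriptional co-regulator of the trithorax group. CG14434 (6 of 6), E2f1 (6 of 14), the E2F activator of S phase, and IP3K2 (6 of 9), an inositol trisphosphate kinase gene, completed the 10. All 10 were between 15286 bp and 113744 bp long, against a median of 2166 bp for protein-coding genes.

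At 7 of these 10 genes the widest member was narrowest in Gcm, as were 713 of all 1621 members (44.0%). At Raf it was an intronic region (chrX:2304954-2306444) of 477 bp in Gcm, a median of 2871 bp and 7596 bp in Abd-B+Hth. At pnt (chr3R:23331439-23333511) it was 480 bp in Gcm, a median of 2022 bp and 2437 bp in Abd-B, with no base common to all 12 lines. At tara (chr3R:16236271-16237951) it was 1126 bp in Gcm, a median of 1733 bp and 2706 bp in Abd-B. At ush, Tlk and E2f1 another line was narrowest. The ush member (chr2L:478711-480494), near the start of cbt, had 902 bp in Ubx+Hth, a median of 2935 bp and 4249 bp in Hth. At E2f1 (chr3R:21651186-21652304) it was 775 bp in Ubx+Hth+Gcm, a median of 1094 bp and 2594 bp in Hth.

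Lists of genes that fit these cells and this treatment were read against the 13.8% of all protein-coding genes. Of the 10 hemocyte regulators, 7 had a member: srp (4 members), the GATA factor of the blood lineage, ush (9), Pvr (2), the PDGF/VEGF receptor of hemocytes, zfh1 (2), a zinc finger homeodomain repressor, and lz, gcm2 and Pvf2 with 1 each. Of these, lz encodes the Runx factor of crystal cells, gcm2 the paralog of gcm, and Pvf2 a Pvr ligand. The genes kn, gcm and Pvf3 had none, and 4 of the 10 had a member inside the gene itself. For gcm, regions over exons present on the plasmids had been removed by the authors. The Pvr member (chr2L:8229174-8231610) was called at q 1e-10 in all 12 lines, with widths of 953 bp in Gcm, a median of 2542 bp and 2958 bp in Dfd+Hth.

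Hemocyte effectors, the matrix, receptor and enzyme genes of mature blood cells, had members at 5 of 19: Tig, drpr, LanA, LanB1 and LanB2, each with 1. These are a matrix protein, the engulfment receptor and the laminin chains. The plasmatocyte markers Hml, NimC1, eater, crq and He and the phenoloxidase genes PPO1, PPO2 and PPO3 had none. The rest of the list, Col4a1, vkg, Ppn, SPARC, Pxn and Sr-CI, also had none, with 7 Ubx regions at vkg and 3 at Col4a1. The shares of the regulator and effector lists were 70% and 26.3%, but the median gene was 18944 bp long in the regulator list and 7671 bp in the effector list, and the part of length was not tested.

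The ecdysone response list had 9 of 16: EcR, the receptor itself, with 5 members, Eip75B with 7, Eip74EF with 5, ftz-f1 with 5, br and Kr-h1 with 4 each, Hr4 with 3, Hr39 with 2 and Eip93F with 1. All of these encode transcription factors. The receptor partner usp, Hr3, Hr38, Eip78C, Blimp-1, ImpE1 and ImpE2 had none. The EcR member (chr2R:6141220-6143438) was 1492 bp in Gcm, a median of 5252 bp and 5678 bp in Hth. All 4 Ubx regions at br and all 4 at Kr-h1 were members, against 30.7% of Ubx regions in general. Members were 2 of 2 Ubx regions at Hr39, 1 of 1 at Eip93F and 3 of 6 at Hr4. They were 5 of 10 at Eip74EF, 5 of 10 at ftz-f1, 5 of 14 at EcR and 7 of 27 at Eip75B. The br member (chrX:1617947-1620216) had widths of 1357 bp in Gcm, a median of 2207 bp and 4119 bp in Abd-B, and that at Eip74EF (chr3L:17577308-17578535) of 792 bp in Dfd+Gcm, a median of 1322 bp and 3641 bp in Abd-B. The median gene of the list was 36625 bp long, the longest of the 12 lists.

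Signalling lists lay between. The Notch list had 6 of 13, namely the receptor gene N (2 members), mam (4), the coactivator, kuz (2), the protease that cleaves Notch, and the target genes E(spl)m8-HLH, E(spl)mbeta-HLH and E(spl)m3-HLH with 1 each. The members at the 3 target genes and the widest at N were called at q 1e-10 in all 12 lines. At E(spl)m8-HLH (chr3R:26041474-26042991) widths ran only from 1239 bp in Ubx+Hth over a median of 1483 bp to 1628 bp in Abd-B. The JAK/STAT list had 5 of 11: the transcription factor gene Stat92E with 4 members, and the ligand gene upd3, the inhibitor gene Socs36E, Su(var)2-10 and Ptp61F with 1 each, while the receptor dome and the kinase hop had none.

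Of 12 glial genes and Gcm targets, 5 had a member: pnt (7), loco (3), ttk (2), gcm2 and moody. The gene gcm itself, repo, Gli, Nrx-IV, htl, wrapper and Eaat1 had neither a member nor any Ubx region. Every gene of this list with a Ubx region thus had a member, while 1931 of all 5449 protein-coding genes with a Ubx region did. These genes had several Ubx regions each: 14 at pnt, 7 at loco, 5 at ttk, 2 at gcm2 and 2 at moody. At gcm, the authors' removal of regions over plasmid exons limits what the lack of a region shows. At moody (chrX:2049905-2051125), the receptor gene of the blood-brain barrier, the member was 643 bp in Dfd+Gcm, a median of 1316 bp and 1921 bp in Gcm, 1 of 45 members whose widest region was that of Gcm.

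Genes of the Hox system had members at 5 of 15: Antp, Ubx, Abd-B, hth (2) and mirr. In Ubx the member was an intronic region (chr3R:16702726-16703325) 17101 bp from the nearest start, called at q 1e-10 in all 12 lines, with widths of 537 bp in Gcm, a median of 662 bp and 963 bp in Ubx+Hth+Gcm. In Abd-B it was a narrow intronic region (chr3R:16948538-16948941) with a median of 397 bp over the lines and stricter calls in 7 of them. The bithorax complex from Ubx to Abd-B held 4 members among 9 Ubx regions, and the Antennapedia complex from lab to Antp 0 among 12, the Antp member lying just outside it. Known Hox targets had 7 of 18: dpp, salm, bs, ct (2), hh, btd and Antp. They differed among themselves. The widest ct member had a median of 1242 bp over the lines and stricter calls in 10, and the hh member 787 bp and 10 lines, while the bs member had 413 bp and 4 lines. The dpp member (chr2L:2450723-2451372) kept the stricter call in 3 lines, the fewest, and had widths of 313 bp in Gcm, a median of 487 bp and 719 bp in Abd-B. Dll, rpr and wg, regulated by Hox proteins in the embryo, had none. Regions over exons present on the plasmids had been removed by the authors, so that a lack of members over the exons of those genes is not informative.

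Lists tied to the treatment were read last. Copper and metallothionein genes had 3 of 12 (25%), with an exact binomial 95% interval of 5.49 to 57.2%. Of these, MtnD and MtnE share 1 member (chr3R:20534604-20535076), and Ccs, the copper chaperone of superoxide dismutase, had 2. Heat shock genes had 1 of 15, the constitutive Hsc70-4, though 10 of the 15 had a Ubx region. Since reads with more than 1 position were not kept by the authors, the near-identical Hsp70 copies could not be judged. Muscle structural genes had 1 of 12, Tm1 with 3 members, and cytosolic ribosomal protein genes 14 of 87 (16.1%), near the 13.8% of all genes. Of the ribosomal protein genes 49 had some Ubx region.

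**Figure D5:**
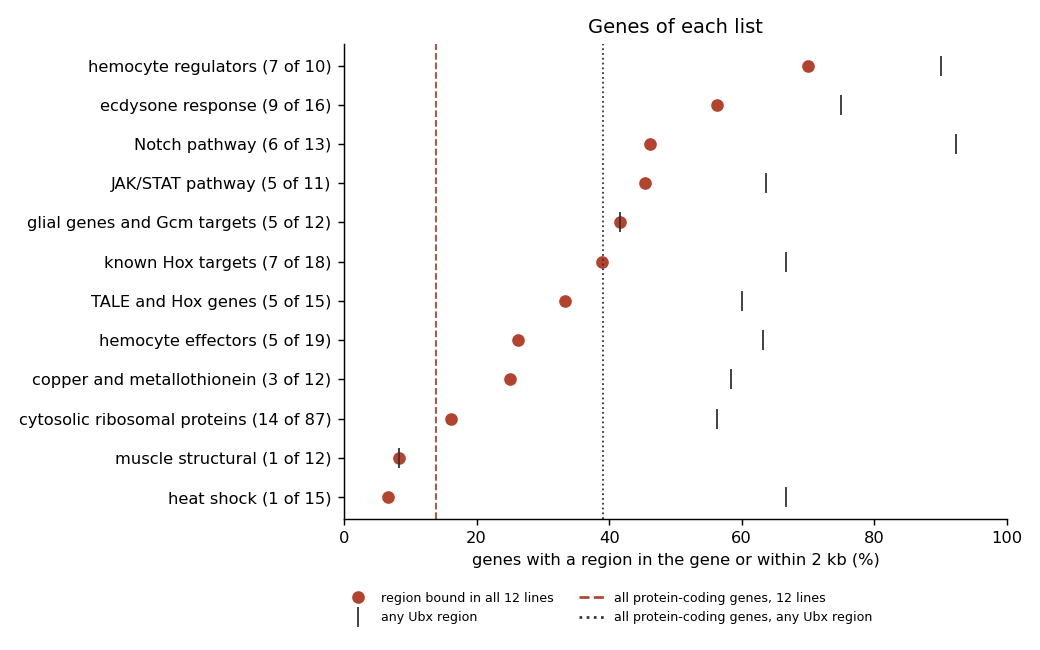
Share of genes (%) of each of 12 lists with a region bound in all 12 lines (red points) and with any Ubx region (black ticks) in the gene or within 2 kb. The dashed line is the 13.8% and the dotted line the 39.1% of all protein-coding genes; hemocyte regulators (7 of 10) and the ecdysone response (9 of 16) are highest and heat shock (1 of 15) lowest.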

How the data were processed

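Anti-GFP ChIP-Seq regions of 12 stable Kc167 lines were used. The authors mapped reads to dm6 with Bowtie 1.2.2, keeping uniquely placed reads, and MACS2 2.1.1.20160309 called peaks in each replicate over its input, at q 1e-2 and q 1e-10. Peaks over exons present on the plasmids were removed by the authors, and the lists they deposited hold, per line, merged regions found in both replicates. The deposited start and end columns are positions in bases, and the deposited score column is 0 in every row, so that no signal or depth per sample is held. The Hth list stands in 3 files and was the same in each. Because lists combine the replicates, precision comes from the number of regions alone.

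Overlaps, widths, distances and motif matches were obtained with scripts in Python 3.11.15 (scipy 1.17.1, numpy 2.4.6, statsmodels 0.14.6). bedtools 2.31.1 gave the same number of members. Genes came from Ensembl release 115 and sequence from the RefSeq genome of Release 6. No region ended beyond a chromosome. Members were compared with the other Ubx regions by Fisher's exact test, two-sided, with exact binomial 95% intervals and Benjamini-Hochberg adjustment, and by the Mantel-Haenszel method in 4 classes of width. A gene had a member when it lay in the gene or within 2 kb. Starts and annotation classes used protein-coding and ncRNA genes. Scripts were tested on simulated data. Of the listed genes, all were matched by symbol but Eip71CD, Dl and Hsp67Bb. Ribosomal protein genes were taken by symbol, leaving out those named as like another.

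The text names the 10 members with the widest common stretch, the 10 genes with the most members, members at list genes, and the 3 regions closest to the rule on either side. Members, lists and motifs were chosen with earlier results of these data known. Alternatives were other thresholds, overlaps, windows, lines and arms. Signal tracks, input libraries and chromatin opening were not analysed here.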

Additional observations from a re-analysis of the deposited data

How the results depend on the processing

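The number of members was 1621. It was 378 with all lists at q 1e-10, 1052 with only Ubx at q 1e-10, 697 with 400 bp windows on the region centres, and 3127 with neither Gcm nor Ubx+Hth required (chosen after seeing the data). It was between 1603 and 1673 when counted from the regions of another line, between 1623 and 2396 with 1 line not required, 1510 with an overlap of 50% of the shorter region, and 1553 with a base common to all lines. The lower share at starts kept its direction and call in 11 alternatives (odds ratio 0.56 to 0.78). It missed the threshold with any part of the region counted (0.898, exact p = 0.0808, added after seeing the data).

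Of 15 motifs, 7 differed. The number was 13 with whole regions, 3 within classes of width, 2 over 500 bp from a start, and 0 with all lists at q 1e-10, where 4 had an unadjusted p under 0.05 by Fisher's exact test. With whole regions, which are wider in members, the odds ratios of HoxA (1.84), HoxB (1.78), the Exd-Hox octamers TGATTAAT (1.78) and TGATTTAT (1.4), STAT (1.66) and the E-box (1.73) turned to the other side of 1, and so did M1BP over 500 bp from a start (1.17). Calls gained by HoxA, HoxB and the octamer TGATTGAT are given with those motifs. GAGAG and CACACA kept their call in 10 of 11 alternatives, with odds ratios of 1.35 to 2.99 and 1.38 to 3.03, and the Gcm site in 9 of 11. In each of these every member overlapped a Gcm region by the rule, so the count for the Gcm site is tied to the choice of members. Against the regions short of Ubx+Hth alone, which also overlap a Gcm region, its odds ratio was 1.10. The number of 6-mers that differed was 122, and 5 with regions over 500 bp from a start alone, where fewer regions were tested.

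Within the gene body alone, 4 hemocyte regulators and 4 ribosomal protein genes had a member. With 10 kb on either side, 9 hemocyte effectors, 3 heat shock genes and 30 ribosomal protein genes had one.

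No paired analysis was possible because the lists combine both replicates of a line, and library numbers are not shared between lines. Leaving out a replicate could not be done for the same reason. The lists hold no reads, so a region absent from a line was not called there, which does not show that nothing was bound. Gcm and Ubx+Hth, the lists covering the fewest Ubx regions, decide most of the membership.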

Other observations

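Some values belong to none of the comparisons. Members overlapped an annotated ncRNA in their central 200 bp in 105 of 1621 cases (6.48%), against 163 of 3657 other Ubx regions (4.46%, odds ratio 1.48, Fisher's exact test, adjusted p = 0.0125 over 5 kinds of gene). The same held for snoRNA genes, with 8 members (0.494%) against 3 other Ubx regions (0.0820%, odds ratio 6.04, adjusted exact p = 0.0125). tRNA genes were overlapped by 30 members (1.85%) and 52 other regions (1.42%, adjusted p = 0.346), snRNA genes by 4 and 3 (adjusted p = 0.346), and transposable elements by 1 and 2 (adjusted p = 1). These kinds of gene were looked at after the data were seen.

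The metallothionein gene MtnA, whose promoter drives the plasmids of every line, had regions within 2 kb (chr3R:9783407-9784370 for the gene) in 10 of 12 lines. They covered 799 bp in Ubx, 728 bp in Dfd, 1395 bp in Abd-B, 380 bp in Ubx+Hth, 888 bp in Dfd+Hth, 1111 bp in Abd-B+Hth, 1030 bp in Ubx+Gcm, 984 bp in Dfd+Gcm, 1040 bp in Ubx+Hth+Gcm and 336 bp in Dfd+Hth+Gcm. The lines with no region were Hth and Gcm, those in which no Hox protein was introduced, so MtnA held no member. The plasmids of all lines carry this promoter, and the authors removed only regions over plasmid exons. Reads from the plasmids and from the gene itself cannot be told apart here, and the source of these regions was not tested. The gene gcm had no region within 2 kb in any of the 12 lines. Regions over exons present on the plasmids had been removed by the authors, so the lack over the exons of gcm is not informative.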
